A study of Mus musculus with 8 samples.

Results

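The Fanconi anaemia and homologous recombination repair genes were examined in undifferentiated spermatogonia, the most immature germ cells of the adult testis, among them the spermatogonial stem cells. Members were chosen by name, as rows of the authors' comparison whose gene symbol is on a list of 41 genes, and 40 of the 14853 rows matched. The member without a matching symbol was Fance, whose row carries an Entrez gene ID (72775) but an empty symbol, so it stands outside the counts below. Total RNA had been sequenced from C57BL/6 mice of 8 to 12 weeks that carried CreER at one Tert allele, opposite either a loxP-flanked allele (CreER/flox, 4 samples, titled TERT-del) or a normal allele (CreER/+, 4 samples, titled TERT-hetero). All of these animals also carried 1 Rosa lsl-Tdtomato allele, a red fluorescent reporter that Cre switches on, and all had received tamoxifen, which activates CreER. On day 7 the MCAM-high, KIT-negative cells that fluoresced with Tdtomato were collected by flow sorting. Tert encodes the reverse transcriptase of telomerase. By the genotype CreER is placed at Tert, so recombination is limited to cells in which that allele is active. The controls keep 1 intact Tert allele and are not wild type, although the table of the comparison is named as flox against WT.

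The Fanconi pathway repairs crosslinks that tie both DNA strands together and block replication forks. A core complex of FANC proteins, which holds the ubiquitin ligase FANCL, places ubiquitin on the paired proteins FANCI and FANCD2, and nucleases then cut the DNA beside the crosslink. The resulting break is mended by homologous recombination, in which the ends are trimmed, BRCA proteins prepare the single strand for pairing with an intact copy, and helicases and resolvases take the joined molecules apart. Germ cells depend on this machinery during proliferation and again in meiosis, and several of its proteins also act at telomeres.

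Each row gives a mean normalized count over the libraries, the log2 ratio of the flox to the CreER/+ group, called the log2 fold change here, its standard error (SE), and a p-value adjusted over all rows. Values per library were not used here, so no spread between samples can be shown beyond the SE, and the adjusted p values rest on the DESeq2 Wald test. The sources used here do not say whether a sample was 1 animal or a pool, so these p values measure the spread between the samples as labelled. A gene was called changed at an adjusted p under 0.05. Tert, the targeted gene, stood at 0.29 on the log2 scale (SE 0.26, adjusted p 0.595), from the authors' deposited table. The sources used here do not name the deleted part of Tert, so its value is no check of the labels or of the direction of the comparison. Of markers of undifferentiated spermatogonia, 19 of 19 had a row, with mean counts from 14.9 (Utf1) to 5143 (Zbtb16) and a median of 1170, from the authors' deposited table. Of markers of differentiating spermatogonia, 7 of 7 had a row, with mean counts from 79.9 (Dmrtb1) to 681 (Sohlh2) and a median of 350. The sort genes stood at 4854 for Mcam and 93.1 for Kit in the authors' deposited table. No gene of either list was called. The undifferentiated list had 5 of 19 above 0 and a median log2 fold change of -0.07. The differentiating list had 4 of 7 above 0 and a median of 0.06. Smallest in p on the undifferentiated list were Ret (-0.23, SE 0.08, adjusted p 0.0798) and Zbtb16 (-0.18, SE 0.07, adjusted p 0.0875), from the authors' deposited table.

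One member rose and none fell. Fanci was 1.38-fold higher in the flox samples (0.46 on the log2 scale, SE 0.10, adjusted p 0.000487), from the authors' deposited table. This is 1 of 40 members, where 5.36% of all rows were called in either direction, 1.94% higher and 3.42% lower. The members as a set lay close to 0, with 25 above and 15 below and a median of 0.038, against 7440 of 14853 rows above 0 and a median of 0.00071 for all rows. Their log2 fold changes ran from -0.29 for Rad52 to 0.49 for Fancb, and 28 of the 40 were within 0.2 of 0, compared with 57.0% of all rows. The members had a median SE of 0.13 and all rows 0.17, and the comparison was not matched for SE or mean count. At an unadjusted p under 0.05 there were 5 members, 12.5% of them, namely Fanci, Nbn, Wrn and Fancl above 0 and Mre11a below, while 19.7% of all rows reached that level, 9.15% above 0 and 10.5% below. Counted by direction, 2.5% of the members were called higher and 10% lay above 0 at an unadjusted p under 0.05, close to the shares of the table. In the other direction 0% were called lower and 2.5% lay below 0 at that level, beside 3.42% and 10.5% of the table. With 40 members 1 gene makes 2.5%, so these shares rest on very few genes and are not read as a trait of the members.

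**Figure D1:**
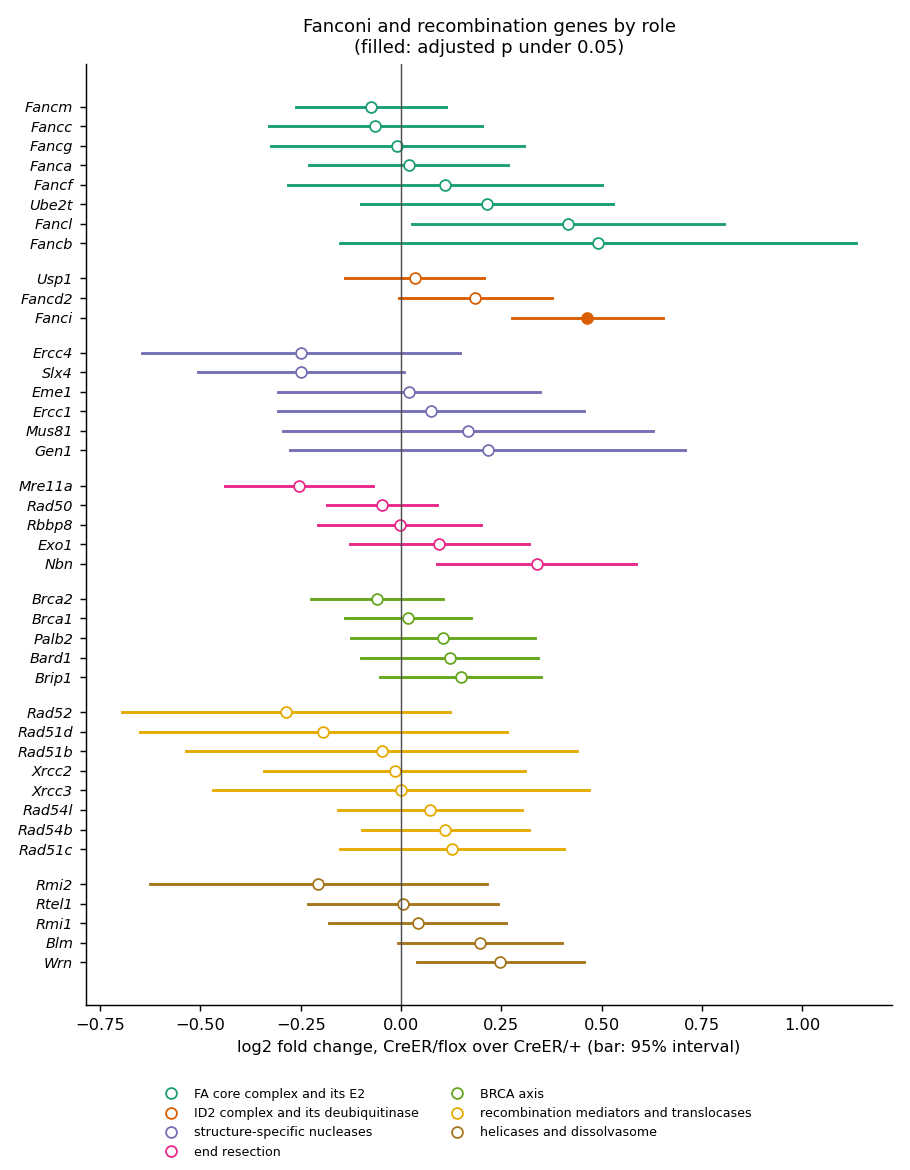
Log2 fold change of flox over CreER/+ for the 40 members, grouped by role, with bars for the 95% interval (log2 fold change plus or minus the normal quantile times its SE). The filled point is Fanci, at 0.46 with an interval from 0.28 to 0.65, and the open points did not pass an adjusted p of 0.05.

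Precision set what could be seen. The smallest absolute Wald statistic (log2 fold change divided by its SE) among called rows was 3.00, so a member had to differ by that many SEs. For Rad50, the most abundant member with a mean count of 2154, this corresponds to a log2 fold change of 0.21, and for Fancb, the least abundant with 58.8, to 0.98. The median over the members was 0.38. The 95% intervals of 26 members lay wholly between -0.5 and 0.5, and those of 39 between -1 and 1, so a 2-fold change in either direction is outside the interval for all members but Fancb. The SEs of the members were those of other genes of like mean count, with ratios from 0.85 to 1.28 and a median of 0.99. The plot of fold change against mean count shows the same funnel for the members as for all rows.

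**Figure D2:**
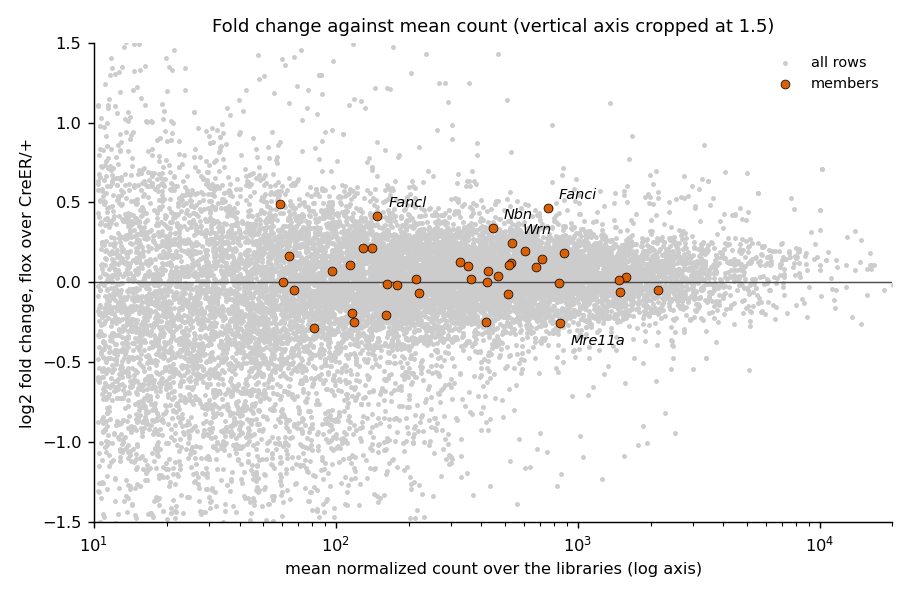
Log2 fold change of flox over CreER/+ against the mean normalized count (log axis) for all rows (grey) and the members (orange), with the 5 members of smallest p named. Members span mean counts from 58.8 to 2154, and Fanci lies at the upper edge of rows of like count, while 177 rows beyond a log2 fold change of 1.5 or a mean count of 20000 are not drawn.

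The paired substrates of the pathway and the enzyme that removes their ubiquitin are Fanci, Fancd2 and Usp1. Fanci spans 79392312 to 79450266 on chromosome 7 of GRCm38 (Entrez gene 208836). It had a mean count of 754 and an interval of the log2 fold change from 0.28 to 0.65. Its partner Fancd2 was at 0.18 (SE 0.10, adjusted p 0.274, mean count 878) in the authors' deposited table, with an interval from -0.0062 to 0.38 that overlaps that of Fanci. The difference between these partners was not tested, because it needs the values per library. Usp1, the deubiquitinase, stood at 0.03 (SE 0.09, mean count 1586) in the authors' deposited table, with an interval from -0.14 to 0.21.

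The call of Fanci carries limits of the test and of its position. The Wald statistics of all rows were 1.45 times as wide as the normal distribution that gives the p values. With the SE of Fanci widened by that factor its interval was 0.19 to 0.74, still above 0, but its adjusted p was 0.304, and it was 0.439 with a t distribution of 6 degrees of freedom. Few or no rows of the whole comparison passed under these settings, as given below, so failing them does not set Fanci apart from most other called genes. Over 9 alternatives that change the adjusted p or the threshold, Fanci passed in 7 and the adjusted p ran from 0.000349 to 0.439.

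The 3' end of Fanci shares 921 exon bases with Polg on the opposite strand, between 79448250 and 79450264 on chromosome 7 of GRCm38, which is 16.0% of the annotated exon bases of Fanci. Polg encodes the catalytic subunit of the mitochondrial DNA polymerase. It was called higher too, at 0.35 (SE 0.09, adjusted p 0.00857, mean count 883) in the authors' deposited table. The sources used here do not say whether counting used the strand, so either gene could have received the reads of the shared bases, and their part in both values was not tested.

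The start of Fanci is shown because it belongs to the called member, beside those of Bard1 and Rad51c, which hold a binding string of E2F, the transcription factor family of S phase genes. Of the 5 members with such a string, Bard1 and Rad51c have the highest log2 fold changes, and Brca2, Fancg and Rmi1 are not shown. The sequences are RefSeq promoters of GRCm38.p6, 250 bases before to 50 after a transcript start, in the direction of the gene. The start used lies 26 bases inside the outermost start of the gene for Fanci, 169 for Bard1 and 448 for Rad51c, which has 2 such windows, of which the one with an E2F string is shown. Fanci lies on the plus strand at chr7:79392088-79392387, Bard1 on the minus strand at chr1:71102923-71103222 and Rad51c on the minus strand at chr11:87404457-87404756. Capitals mark matches, on either strand, to any string searched. The E2F strings were 4 in number (spelled TTTCGCGC or TTTGGCGC, or else TTTCCCGC or TTTGGCGG). Also searched were the cell cycle element spelled TTTGAA, the CCAAT box by its letters, the E-box, which reads CACGTG, and the NRF1 string, which reads GCGCATGCG. None of these strings contains another.
Fanci: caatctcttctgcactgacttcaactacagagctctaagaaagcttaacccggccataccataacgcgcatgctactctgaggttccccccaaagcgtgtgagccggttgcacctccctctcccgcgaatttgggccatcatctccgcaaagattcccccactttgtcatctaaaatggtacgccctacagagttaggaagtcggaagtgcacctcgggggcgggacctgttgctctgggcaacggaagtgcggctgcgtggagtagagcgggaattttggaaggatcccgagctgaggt
Bard1: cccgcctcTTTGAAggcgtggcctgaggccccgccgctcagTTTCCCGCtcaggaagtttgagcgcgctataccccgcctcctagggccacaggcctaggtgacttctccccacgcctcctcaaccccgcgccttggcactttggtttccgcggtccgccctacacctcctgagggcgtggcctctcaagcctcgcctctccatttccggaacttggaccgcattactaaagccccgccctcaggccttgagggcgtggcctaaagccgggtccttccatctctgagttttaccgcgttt
Rad51c: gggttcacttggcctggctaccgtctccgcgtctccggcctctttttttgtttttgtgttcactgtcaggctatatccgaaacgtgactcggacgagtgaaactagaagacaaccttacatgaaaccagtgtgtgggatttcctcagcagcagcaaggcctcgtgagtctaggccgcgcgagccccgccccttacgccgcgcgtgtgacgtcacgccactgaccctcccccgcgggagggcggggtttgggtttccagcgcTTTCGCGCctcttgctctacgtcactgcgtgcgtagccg

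None of the 5 kinds of string was found in this window of Fanci, which says only that these letters are not there. Of 29 members with both a row and a RefSeq promoter, 5 (17.2%) held an E2F string (Bard1, Brca2, Fancg, Rad51c and Rmi1). The share was 4.79% of 11639 genes of the table with a promoter and 2.37% of all 32851 promoters. The log2 fold changes of these 5 in the authors' deposited table were 0.12, -0.06, -0.01, 0.13 and 0.04, all uncalled. CCAAT was present in 17 of the 29 members (58.6%) and in 43.8% of the genes of the table. The cell cycle element, the E-box and the NRF1 string were present in 3, 3 and 1 of the members (10.3%, 10.3% and 3.45%). They were present in 14.8%, 11.8% and 3.92% of the genes of the table. With 29 members these shares rest on few genes. The 33 promoters of these members held a median of 23 CG pairs, against 19 over the 14659 promoters of genes of the table and 7 over all promoters.

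The core complex and the ubiquitin-conjugating enzyme Ube2t had 8 measured members, 5 above and 3 below 0, with a median of 0.064 and none called. Fancl, the ligase, had the smallest p of the group, at 0.42 (SE 0.20, adjusted p 0.211, mean count 149) in the authors' deposited table. It lies on chromosome 11 and shares 462 exon bases at its 3' end with Vrk2 on the opposite strand, which stood at 0.28 (SE 0.29, adjusted p 0.655), from the authors' deposited table. Fancb, an X-linked scaffold subunit, had the largest fold of any member, 1.41, but with an SE of 0.33 and an adjusted p of 0.424 in the authors' deposited table. Its interval, from -0.15 to 1.13, spans no change and a 2-fold rise. Ube2t (0.21, SE 0.16) and Fancf (0.11, SE 0.20) were above 0 in the authors' deposited table. Fanca (0.02, SE 0.13), Fancg (-0.01, SE 0.16), Fancc (-0.06, SE 0.14) and the DNA translocase gene Fancm (-0.08, SE 0.10) were nearer to 0 in the authors' deposited table. The row matched to Fance by its ID alone stood at -0.03 (SE 0.19, adjusted p 0.959, mean count 122) in the authors' deposited table.

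Among the nucleases that cut at crosslinks and joint molecules, 4 of 6 were above 0 and none was called. Slx4, a scaffold that docks some of these nucleases, was at -0.25 (SE 0.13, adjusted p 0.272, mean count 417) in the authors' deposited table, with an interval from -0.50 to 0.0074. Ercc4, the catalytic subunit of the nuclease XPF-ERCC1, had a like value with a larger SE (-0.25, SE 0.20), whereas its partner Ercc1 was at 0.07 (SE 0.19) in the authors' deposited table. Mus81 (0.17, SE 0.23) and its partner Eme1 (0.02, SE 0.17) stood above 0 in the authors' deposited table, as did the resolvase Gen1 (0.22, SE 0.25). Apart from Slx4 the mean counts of this group ran from 64.3 to 215, and the change needed for a call from 0.39 for Slx4 to 0.75 for Gen1.

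The end-resection group held the members whose p ranked 2 and 3 among the 40, on opposite sides of 0. MRE11, RAD50 and NBN form the MRN complex, which binds broken ends and starts their trimming. Mre11a, the nuclease subunit (chromosome 9), was at -0.25 (SE 0.09, adjusted p 0.0860, mean count 842) in the authors' deposited table. Nbn, the subunit that recruits the checkpoint kinase ATM (chromosome 4), was at 0.34 (SE 0.13, adjusted p 0.0914, mean count 447) in the authors' deposited table. Rad50, the long coiled-coil ATPase of the complex, was at -0.05 (SE 0.07, adjusted p 0.774, mean count 2154) in the authors' deposited table. The intervals of Mre11a (-0.44 to -0.07) and Nbn (0.09 to 0.59) did not overlap each other. With SEs widened by the factor of 1.45 they did, running from -0.52 to 0.013 for Mre11a and from -0.022 to 0.70 for Nbn, and the difference itself was not tested because it needs the values per library. At a threshold of 0.1 both would be called, beside 9.02% of all rows. Both values were also taken with the dependence of fold change on mean count, GC content and transcript length fitted and removed. Mre11a was then at -0.28 (adjusted p 0.0788) and Nbn at 0.24 (adjusted p 0.365). Rbbp8, which encodes the resection factor CtIP, was at -0.0028 (SE 0.10) and the exonuclease gene Exo1 at 0.10 (SE 0.11) in the authors' deposited table.

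The BRCA genes had the narrowest range of the 7 role groups, from -0.06 to 0.15. All 5 lay within 0.2 of 0 and had intervals within -0.5 to 0.5. Brca1, the ligase that directs breaks to recombination, was at 0.02 (SE 0.08, adjusted p 0.941, mean count 1483) in the authors' deposited table, with an interval from -0.14 to 0.18. Brca2, which acts downstream of BRCA1 in recombination, was at -0.06 (SE 0.08, adjusted p 0.762, mean count 1492) in the authors' deposited table, with an interval from -0.22 to 0.10. Bard1, the ligase partner of BRCA1, was at 0.12 (SE 0.11), Palb2, which bridges BRCA1 and BRCA2, at 0.10 (SE 0.12) and the helicase gene Brip1 at 0.15 (SE 0.10, adjusted p 0.442, mean count 710), from the authors' deposited table.

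The recombination mediators and translocases had 3 members above 0 and 5 below, a median of -0.0084 and no call. Rad52, an annealing factor, was the lowest member at -0.29 (SE 0.21, adjusted p 0.476, mean count 81.1) in the authors' deposited table. Rad51c, Rad51b, Rad51d and Xrcc2, whose proteins assemble in one complex, were at 0.13, -0.05, -0.19 and -0.02 in the authors' deposited table, with SEs of 0.14, 0.25, 0.23 and 0.17. Xrcc3, whose protein also pairs with that of Rad51c, was at -0.00057 (SE 0.24) in the authors' deposited table. The translocase genes Rad54l (0.07, SE 0.12) and Rad54b (0.11, SE 0.11) were above 0 in the authors' deposited table. Xrcc3, Rad51b and Rad52 had mean counts of 60.6 to 81.1, at which a change of 0.63 or more was needed for a call.

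Among the helicases, Wrn, mutated in Werner syndrome and active at telomeres, was at 0.25 (SE 0.11, adjusted p 0.154, mean count 536) in the authors' deposited table. Blm, mutated in Bloom syndrome, was at 0.20 (SE 0.10, adjusted p 0.280, mean count 604) in the authors' deposited table. BLM works with RMI1 and RMI2 to dissolve joint molecules, and Rmi1 was at 0.04 (SE 0.11) and Rmi2 at -0.21 (SE 0.21) in the authors' deposited table. Rtel1, a helicase that unwinds telomere loops, was at 0.0042 (SE 0.12, adjusted p 0.992, mean count 420) in the authors' deposited table, with an interval from -0.23 to 0.24. No helicase gene was called.

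Transcript levels were compared per length, as mean normalized count per kb of the longest GENCODE transcript, a level and not a difference between groups. The members had a median of 84.2 counts per kb, against 67.7 over 13728 protein-coding rows, and 26 of the 40 lay above the latter. Usp1 (443 counts per kb), Rad50 (418) and Brca1 (226) were highest, at percentiles of 91.4, 90.8 and 80.2 among protein-coding rows. Fancb (19.7 counts per kb), Rad52 (22.8), Ercc4 (23.1) and Gen1 (24.6) were lowest, and the range from Fancb to Usp1 was 22.5-fold. Fanci and Fancd2 stood side by side at 162 and 159 counts per kb. The core complex had a median of 60.3 counts per kb, the recombination mediators and translocases 44.1, the nucleases 50.5 and the resection group 153. The error of these levels cannot be given without the values per library, so neighbours in this order are not ranked against each other.

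**Figure D3:**
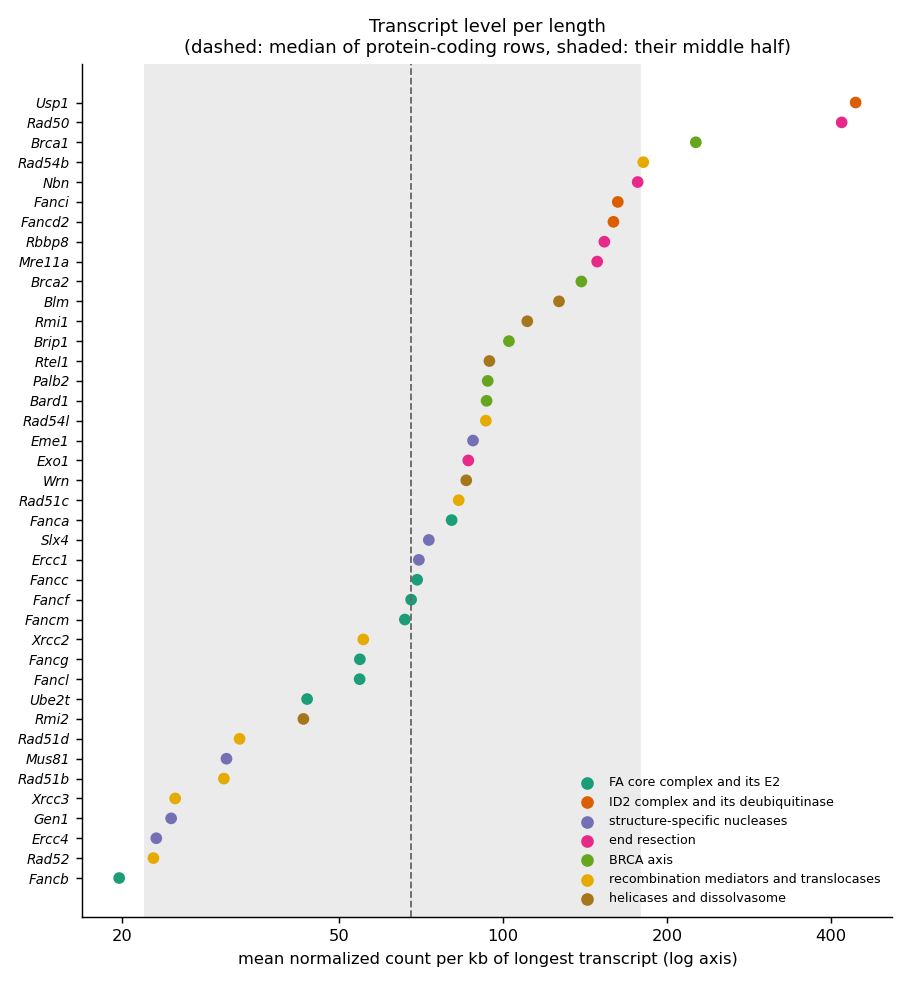
Mean normalized count per kb of the longest transcript (log axis) for each member, coloured by role, with the median (67.7, dashed) and interquartile range (shaded) of protein-coding rows. Usp1, Rad50 and Brca1 are highest, Fancb is lowest, and most core complex genes lie near or below the dashed line.

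Overlap with other genes touched more members than Fanci. Of the 41 listed genes, 20 share exon bases with another annotated gene and 14 with a protein-coding one, giving 15 pairs in which both genes had a row. In 14 of the 15 the other gene lies on the opposite strand. Polg was the 1 overlapping gene that was called. Rad54b shares 2068 exon bases, 35.8% of its own, with Fsbp on the same strand, and Rad54l shares 1184 with Lrrc41 on the opposite strand. Lrrc41 and Fsbp stood at 0.0065 and 0.02 in the authors' deposited table, beside 0.07 and 0.11 for Rad54l and Rad54b. Hnrnpk, which shares 330 bases with Rmi1 and has a mean count of 6246, was at 0.16 (SE 0.06, adjusted p 0.102), from the authors' deposited table. For these members the values hold as long as the counting kept the genes apart, which was not tested.

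**Figure D4:**
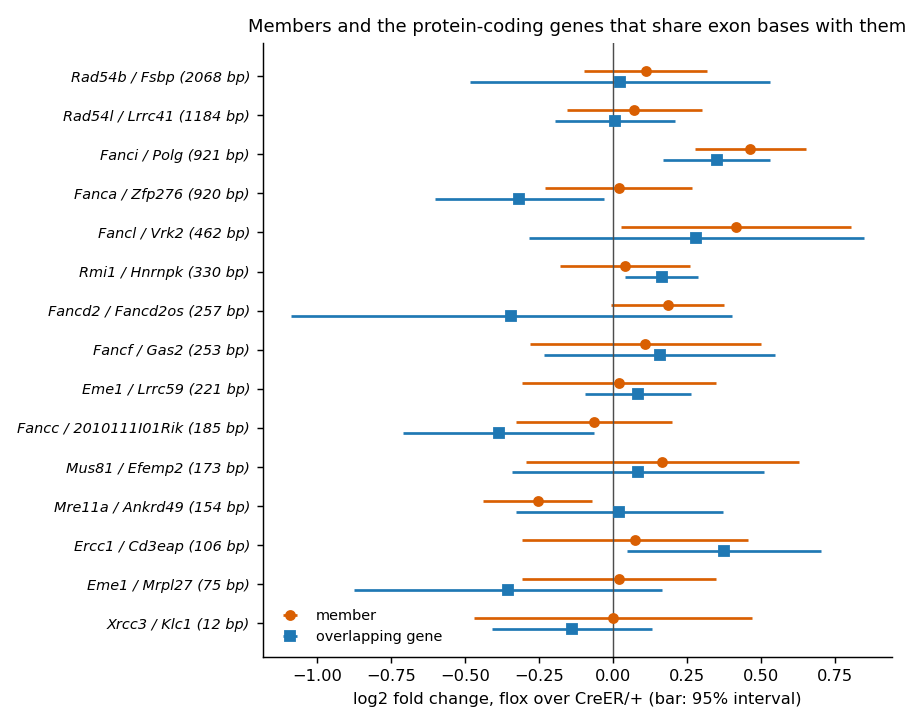
Log2 fold change of flox over CreER/+ for members (circles) and the protein-coding genes that share exon bases with them (squares), with 95% intervals, ordered by the number of shared bases. Fanci and Polg are the pair in which both intervals lie above 0, while in the pairs of Fanca, Fancc, Rmi1 with Hnrnpk and Ercc1 the interval of the other gene alone excludes 0.

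Other genes of the pathway and of its neighbours were counted the same way, on lists drawn up by what the genes do. Of 46 further Fanconi and recombination factors, 32 were above 0, the median was 0.09, and 1 was called in each direction. Parpbp, which restrains recombination, was at 0.49 (SE 0.14, adjusted p 0.0212), and Bod1l, which protects stalled forks, was at -0.44 (SE 0.14, adjusted p 0.0383), from the authors' deposited table. Non-homologous end joining, which rejoins breaks without a template, had 7 of 13 measured genes above 0, a median of 0.014 and 0 calls by the DESeq2 test, with 0 at an unadjusted p under 0.05 as well. Its gene of smallest p, Paxx, was at -0.64 (SE 0.50) with a mean count of 15.9 in the authors' deposited table. Mismatch and excision repair had 3 of 31 called, all higher, namely Ercc2, a helicase of nucleotide excision repair and transcription (0.45, SE 0.10, adjusted p 0.000563), and the mismatch repair genes Msh6 (0.24, SE 0.07, adjusted p 0.0161) and Pms1 (0.25, SE 0.08, adjusted p 0.0497), from the authors' deposited table. Of 26 meiotic recombination genes, the synaptonemal complex gene Sycp2 was lower (-0.53, SE 0.15, adjusted p 0.0158), from the authors' deposited table and no other was called, with 14 above 0. Sycp2 also stands on the list of spermatocyte markers, of which 3 of 12 were called lower (Piwil1, Adam3 and Sycp2) and none higher, with 5 above 0 and a median of -0.24, and the part of spermatocyte RNA in its value was not tested. Once the dependence of fold change on mean count, GC content and transcript length was fitted and taken off, 4 of these 6 calls ended. The log2 fold changes left were 0.44 for Parpbp (adjusted p 0.0575), -0.38 for Bod1l (adjusted p 0.135), 0.19 for Msh6 (adjusted p 0.103) and 0.12 for Pms1 (adjusted p 0.561). Ercc2 (0.50, adjusted p 0.00013) and Sycp2 (-0.62, adjusted p 0.00381) still passed.

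Genes of DNA replication and S phase were set beside the members because repair by recombination accompanies replication. In that list 40 of 43 were above 0, the median was 0.20 and 5 were called higher, Rfc4, Pold1, Gins1, Ccne1 and Gins2, with log2 fold changes from 0.34 to 0.60 in the authors' deposited table. With the trend removed, the calls of Rfc4 (0.17, adjusted p 0.424) and Gins1 (0.45, adjusted p 0.128) ended, and the median of the list was 0.11, beside 0.053 for the members. As deposited, the members had a median of 0.038, and in the plot of cumulative Wald statistics their curve follows that of all rows above 1 and mostly lies below it under 0. Whether the level of replication genes has a part in the value of Fanci was not tested. Of the spermatid markers, a sign of later germ cells, 7 of 17 were called lower (6 of them with the trend removed), and the list had none above 0 and a median of -1.09. Most of these markers had larger SEs than rows of like mean count, with a median ratio of 1.53 and a highest of 5.39. All 17 had a row, with Prm1 at a mean count of 1260 and Tnp1 at 1924 in the authors' deposited table. Per kb of the longest transcript the 17 ran from 6.67 to 4404 (Tnp1) with a median of 104, and Prm1 stood at 2687. The markers of undifferentiated spermatogonia ran from 12.1 to 1624 (Mcam) counts per kb, with a median of 280. The part of the spermatid markers in the members' values was not tested. General germ cell markers had 5 of 5 with a row, 3 above 0 and a median of 0.12. Dazl was the 1 called, at 0.23 (SE 0.06, adjusted p 0.00997, mean count 5088) in the authors' deposited table. With the trend removed Dazl was at 0.03 (adjusted p 0.896), and its part in the members' values was not tested. Markers of somatic and blood cells with a row were 6 of 10 for Sertoli cells, 1 of 6 for Leydig cells, 7 of 8 for myoid and endothelial cells and 4 of 9 for leukocytes and erythroid cells. Of these, Trf, a Sertoli cell marker, was called higher (0.62, SE 0.15, adjusted p 0.00255), and Actg2, a smooth muscle actin, was called lower (-1.17, SE 0.37, adjusted p 0.0340), from the authors' deposited table. The other genes of their lists went both ways. The Sertoli list had 3 of 6 above 0 and a median of 0.16, and the myoid and endothelial list 3 of 7 and a median of -0.10. Trf had a mean count of 316, where the median of the Sertoli list was 22.9. With the trend removed Trf kept its call and Actg2 did not (adjusted p 0.0603). Their part in the members' values was not tested either. In bulk RNA, fewer cells of a type and less RNA per cell cannot be told apart.

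**Figure D5:**
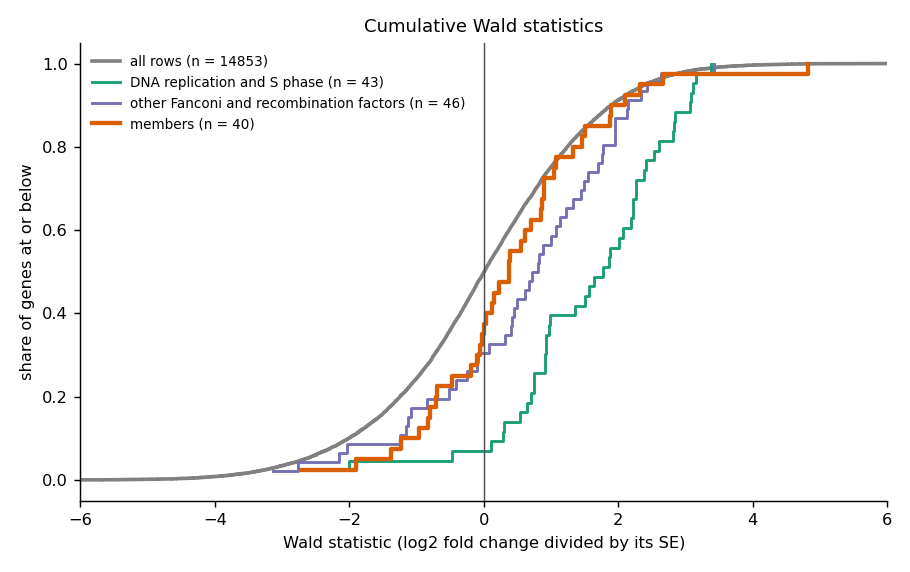
Cumulative share of genes at or below each Wald statistic for all rows (grey), the members (orange), further Fanconi and recombination factors (purple) and replication genes (green). The members cross 0 with 15 of 40 below it and end at Fanci, while 3 of the 43 replication genes lie below 0.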

How the data were processed

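The single table used holds the authors' own comparison, and the members and lists were chosen with earlier results of these data known. Mean counts in it are a normalized count signal, deposited by the authors as an average over the libraries. The fold changes and their SEs were deposited on the log2 scale. The deposited score is the Wald statistic, which matched fold change over SE to within 2.58e-07. The deposited p-values were those of a normal distribution to within 0.424%, and their adjusted values a Benjamini-Hochberg adjustment over the rows to within 0.426%. Per the submitters' processing notes, the tools were DESeq2, TopHat2 2.0.4, Bowtie, Bowtie2 2.0.0-6 and Trim Galore, with mm10 and GRCm38. Per the labels' protocols, libraries came from a stranded low-input total RNA kit. The counting program, strand setting and annotation were not given in the sources used here. Every mean count exceeded 10, and library totals were not used here, so depth shows only as mean counts and SEs.

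No model was refitted. The direction, flox over CreER/+, was taken from the name of the table. Entrez IDs matched RefSeq (GRCm38.p6) for 14828 rows. Intervals are at 95%. Lengths, GC content and exons came from GENCODE M21 transcripts, which gave a length for 99.2% of rows and all 40 members. A cubic trend of fold change with log2 length, GC content and log2 mean count was fitted to 13728 protein-coding rows by least squares weighted by precision, as an alternative. Other alternatives were thresholds of 0.01 and 0.1, mean counts of at least 50 or 100, a t distribution, a null SD from the interquartile range, centring, a minimum log2 fold change of 0.3 and, added after seeing the data, rows that share all values counted once. Every member is named, with full statistics for the called member and the 10 of smallest p. In other lists up to 4 called genes are named, or the 1 of smallest p, except that all 5 called replication genes are named. Polg and the other overlapping genes, Prm1, Tnp1, the other markers named and further members given with full statistics were chosen after their values were seen. A gene of the list of further Fanconi and recombination factors is not reported here. The steps were tested on simulated data. Software was matplotlib 3.10.9, scipy 1.17.1, numpy 2.4.6 and pandas 2.3.3 under Python 3.11.15.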

Additional observations from a re-analysis of the deposited data

How the results depend on the processing

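No paired analysis was possible because the table holds no values per library, and for the same reason no replicate could be left out. The count of 1 called member (Fanci) held under 7 of 10 alternatives. It was 3 at a threshold of 0.1 (with Mre11a and Nbn), where 9.02% of all rows passed. It was 0 with a t distribution of 6 degrees of freedom and with the null SD of 1.45. At an unadjusted p under 0.05 the t distribution gave 3 of 40 members and 1652 of 14853 rows. The null SD gave 1 member and 986 rows at that level. Under the last 2 settings the counts of further Fanconi factors, mismatch and excision repair, meiotic recombination and replication genes were also 0, and over all rows 0 and 5 passed. At 0.01 these lists had 0, 1, 0 and 0 calls. At 0.1, further Fanconi factors had 4, meiotic recombination 2 and replication 8. With the trend in length, GC content and mean count removed, further Fanconi factors had 0 calls, mismatch and excision repair 1 (Ercc2) and replication 3, while protein-coding rows called went from 707 to 386. The cause was not tested. A minimum log2 fold change of 0.3 left mismatch and excision repair with 1, since Msh6 and Pms1 lie below it. The median of the members stayed between 0.037 and 0.053 and the number above 0 at 25 of 40, or 22 of 34 with mean counts of at least 100. Removing the trend turned the sign of Fancg (0.038), Xrcc3 (0.13), Usp1 (-0.071) and Rmi1 (-0.055), none of them called. The change needed for a call was largest for Fancb, Gen1, Rad51b, Xrcc3 and Mus81.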

Other observations

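Over the 11639 genes of the table with a RefSeq promoter, those with an E2F string had a median log2 fold change of 0.05 and those without one -0.0038. For the NRF1 string the medians were 0.04 and -0.0023. These are descriptions of promoter letters and draw no link to a factor.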
